A study of Mus musculus with 65 samples.

Results

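The binding of IHO1 to chromatin was compared between mice that make PRDM9 and mice that lack it, from 2 deposited lists of chromatin immunoprecipitation (ChIP-seq) peaks. The wild-type list held 1589 IHO1 peaks and the Prdm9KO list held 378, together 1967 of the 97260 intervals in the 24 lists analysed. Peaks were sorted by position alone. A peak that shared at least 1 bp with the other list was called shared, and the rest were called wild-type only or knockout only. Of the wild-type peaks, 277 were shared (17.4%) and 1312 were wild-type only. Of the Prdm9KO peaks, 250 were shared (66.1%) and 128 were knockout only. The counts of shared peaks differ because a wide peak of one list can cover several of the other.

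The series holds 65 samples of mouse testis in 36 groups, each an antibody or the input in a genotype. The wild-type mice were C57BL/6JCrl, and the Prdm9KO mice were labelled B6;129P2-Prdm9tm1Ymat/J, so the loss of Prdm9 and the difference in strain cannot be told apart. Both groups had the same treatment to synchronise spermatogenesis: pups aged 1.5 days were fed WIN 18,466, which blocks the making of retinoic acid, for 7 to 10 days and were then injected with retinoic acid itself. Testes were collected 8 days later, when leptotene and zygotene spermatocytes made up 80 to 95% of the sample, and were fixed in 4% formaldehyde for 15 min. The immunoprecipitated material was whole testis enriched for these stages, so the somatic cells and other germ cells still present are part of each sample. Each IHO1 group had 2 samples, with 1 list per group attached to replicate 1. Whether that list pools both samples is not given in the sources used here, and no replicate spread can be computed. Per the design text, the signal of the Iho1KO was subtracted from both lists.

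IHO1 is a partner of MEI4 and REC114 in the machinery that lets SPO11 break DNA at the start of meiosis. It is held on the chromosome axis, the protein core to which chromatin loops are anchored, mainly through HORMAD1, and SYCP3 is a structural axis protein. PRDM9 is a zinc-finger histone methyltransferase that chooses the sites of these breaks, the hotspots, where the strand-exchange protein DMC1 then loads. Without PRDM9, breaks still form but at other places, among them promoters, and spermatocytes arrest. CTCF is a DNA-binding protein that sits at the boundaries of chromatin loops in many cell types. The pseudoautosomal region of X and Y and the distal ends of chromosomes 4, 9 and 13 are known to gather break proteins independently of PRDM9.

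Sequence could be shown where a RefSeq promoter window (GRCm38.p6, 250 bases before to 50 after a gene start) lay wholly inside an IHO1 peak. Each is printed 5′ to 3′ on the gene's strand, in lower case, with capitals where a part of the CTCF core motif was found on either strand. That part reads CC, 3 free letters, AG, 2 free letters and GGC. Windows on chromosomes 8 and 18 were not considered for printing. Gm12273 (chr11:61950667-61950966, plus strand) and Vmn2r29 (chr7:7278240-7278539, minus strand) are promoters with a match that lie at both a shared IHO1 peak and a CTCF peak. Gm32630 (chr7:16932100-16932399, minus strand) and 2410004B18Rik (chr3:145937764-145938063, plus strand) lie in wild-type-only peaks at CTCF peaks, and were taken for a match and the highest CTCF scores. Map3k12 (chr15:102510651-102510950, minus strand) lies in a knockout-only peak without a CTCF peak, and was also taken for its match. Ccr2 (chr9:124101933-124102232, plus strand) lies in a shared Prdm9KO peak at the end of chromosome 9.
Gm12273: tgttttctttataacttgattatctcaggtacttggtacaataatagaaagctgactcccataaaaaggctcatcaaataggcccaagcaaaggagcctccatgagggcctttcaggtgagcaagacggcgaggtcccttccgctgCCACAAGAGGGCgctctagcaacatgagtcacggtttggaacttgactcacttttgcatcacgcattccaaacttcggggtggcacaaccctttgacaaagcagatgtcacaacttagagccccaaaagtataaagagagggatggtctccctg
Vmn2r29: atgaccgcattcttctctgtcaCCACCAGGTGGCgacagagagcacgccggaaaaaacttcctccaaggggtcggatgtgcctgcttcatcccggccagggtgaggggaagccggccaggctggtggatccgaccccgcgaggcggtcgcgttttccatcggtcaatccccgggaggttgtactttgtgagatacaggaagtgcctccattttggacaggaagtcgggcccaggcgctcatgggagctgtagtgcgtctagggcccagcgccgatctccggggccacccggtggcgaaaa
Gm32630: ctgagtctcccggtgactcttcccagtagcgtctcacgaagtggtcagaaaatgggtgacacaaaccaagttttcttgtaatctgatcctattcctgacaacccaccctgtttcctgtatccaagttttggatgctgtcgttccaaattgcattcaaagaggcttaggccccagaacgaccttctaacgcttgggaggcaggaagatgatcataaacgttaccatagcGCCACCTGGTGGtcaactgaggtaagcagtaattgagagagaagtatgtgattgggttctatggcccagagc
2410004B18Rik: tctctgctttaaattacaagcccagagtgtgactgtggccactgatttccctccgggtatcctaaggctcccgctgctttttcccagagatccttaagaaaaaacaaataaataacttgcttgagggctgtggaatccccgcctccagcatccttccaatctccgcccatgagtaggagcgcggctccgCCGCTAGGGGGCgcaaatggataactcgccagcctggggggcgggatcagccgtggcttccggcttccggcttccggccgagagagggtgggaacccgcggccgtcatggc
Map3k12: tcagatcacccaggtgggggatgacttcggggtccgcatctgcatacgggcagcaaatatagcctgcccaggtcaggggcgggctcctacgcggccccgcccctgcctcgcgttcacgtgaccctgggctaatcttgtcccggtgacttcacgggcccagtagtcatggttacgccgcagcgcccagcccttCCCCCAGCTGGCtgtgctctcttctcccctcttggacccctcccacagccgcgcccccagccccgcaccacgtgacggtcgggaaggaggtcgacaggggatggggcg
Ccr2: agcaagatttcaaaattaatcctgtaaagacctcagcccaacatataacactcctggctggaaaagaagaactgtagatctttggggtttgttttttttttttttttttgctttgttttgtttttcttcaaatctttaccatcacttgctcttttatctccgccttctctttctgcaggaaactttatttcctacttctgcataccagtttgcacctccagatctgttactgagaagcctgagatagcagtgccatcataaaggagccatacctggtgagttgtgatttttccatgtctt
These 5 promoters were chosen for holding a match, so its presence in them shows nothing about the classes. Of all 32851 promoter windows, 8.61% held a match, and of the 4270 that overlapped a CTCF peak 15.9% did. A match was found in 6 of 37 windows at shared Prdm9KO peaks (16.2%, 95% interval 7.65 to 31.1), in 17 of 129 at wild-type-only peaks (13.2%, 8.39 to 20.1) and in 1 of 18 at knockout-only peaks (5.56%, 0.988 to 25.8). These intervals overlap, and a match describes letters only.

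Of the 1589 wild-type IHO1 peaks, 17.4% were found in Prdm9KO (95% Wilson interval 15.6 to 19.4). In the other direction, 66.1% of the 378 Prdm9KO peaks were found in the wild type (61.2 to 70.7). Most of the Prdm9KO list was therefore already in the wild-type list, while most of the wild-type list was not found again. In whole testis, fewer cells with IHO1 at a site and less IHO1 per cell cannot be told apart, and a difference in stage make-up between the genotypes was not tested. Intervals here cover the counting of peaks and nothing else, because each group had a single list and the peaks within it do not replicate each other. Sequencing depth is unknown, the peak lists give no height, and a peak missing from a list fell under a threshold that is not given in the sources used here.

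Peaks that matched 1 to 1 had similar median widths in both lists and lay close together. There were 231 such pairs, with a median width of 1920 bp in the wild type and 2048 bp in Prdm9KO and a median ratio of 1.01. Prdm9KO was the wider in 122 of them. The centres lay a median of 122 bp apart, and the shared stretch made up a median of 0.816 of the joint stretch. For the 187 pairs outside the chromosome ends described below, these values were 159 bp and 0.776. Prdm9KO was the wider in 87 of these 187 and in 35 of the 44 pairs at those ends. Wide peaks that cover several of the other list are not among these pairs. Peaks of 1 list seldom lay just beside a peak of the other: 5 of the 1312 wild-type-only peaks and 3 of the 128 knockout-only peaks lay within 1 kb of one.

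A set of Prdm9KO peaks stood apart by position. In the last 2 Mb of chromosomes 4, 9, 13, X and Y lay 81 of the 378 peaks, and on these chromosomes alone did that stretch hold 3 or more. Chromosome 9 had 49, X had 11, Y had 10, chromosome 4 had 6 and chromosome 13 had 5, and no other chromosome had more than 1. These 5 end stretches were chosen by their Prdm9KO peaks, so their high share of found peaks is a description. They are given separately in what follows, and the remaining peaks are called interior. The interior holds 1472 wild-type peaks, of which 187 were found in Prdm9KO (12.7%, 11.1 to 14.5), each with 1 partner.

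IHO1 peaks were nearly all missing at the places where PRDM9 directs breaks. The DMC1 hotspots and CTCF peaks used throughout are those of the wild type, also where Prdm9KO peaks are set against them. Of 632 interior wild-type IHO1 peaks at DMC1 hotspots, 5 were found in Prdm9KO (0.791%, 0.338 to 1.84). At CTCF peaks without a hotspot, 138 of 446 were found (30.9%, 26.8 to 35.4), and at sites with neither, 44 of 394 (11.2%, 8.42 to 14.7). The share found at CTCF peaks exceeded that at hotspots by 30.2 percentage points (95% Newcombe interval 25.9 to 34.6) and that at sites with neither by 19.8 points (14.4 to 25.0). Over the whole list the order was the same, with 13 of 645 (2.02%) at hotspots, 160 of 470 (34.0%) at CTCF peaks and 104 of 474 (21.9%) elsewhere.

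**Figure D1:**
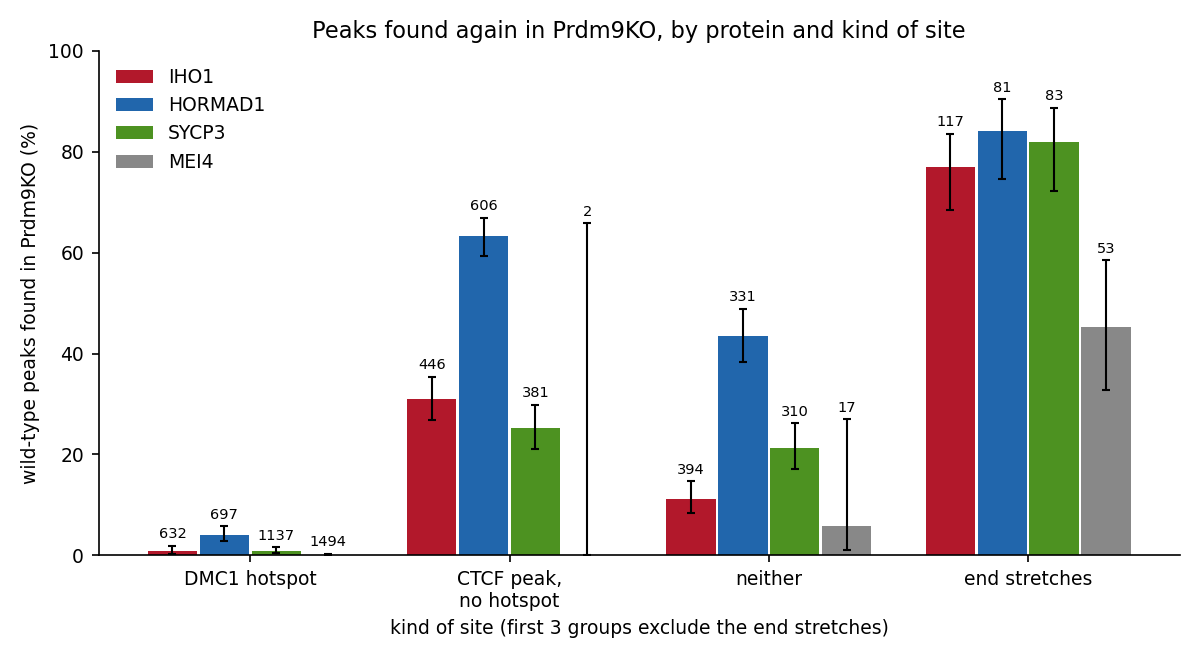
Share of wild-type peaks found in Prdm9KO (y axis, percent) for IHO1, HORMAD1, SYCP3 and MEI4 by kind of site (x axis), with the first 3 groups of bars limited to the interior and the last to the ends of chromosomes 4, 9, 13, X and Y. Bars start at 0, error bars are 95% Wilson intervals and the number above each is the count of wild-type peaks; IHO1 stands at 0.791% at hotspots, 30.9% at CTCF peaks and 76.9% in the end stretches.

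The deposited DMC1 value is the authors' own signal, in a unit they did not name. Over all 13808 hotspots its median was 129 and its upper quartile 437, and over the 627 interior wild-type-only peaks at hotspots its median was 3632. The 5 interior shared peaks at hotspots had values of 55.5, 90.0, 108, 1278 and 2460. The last 2 lie above the upper quartile of all hotspots, and the other 3 lie under the median. Ranked by this value into 4 bins of 158, the 632 interior peaks held 4 found ones in the lowest bin (2.53%), 1 in the next (0.633%) and 0 of 316 in the upper 2, which allows a share of up to 0.949%. The other 8 shared peaks at hotspots lie in the chromosome 9 end stretch, which was chosen by its Prdm9KO peaks, and are left out of this ranking. Of the 1000 hotspots with the highest value, 479 had an IHO1 peak in the wild type and 1 had one in Prdm9KO. Across all 13808 hotspots, 4.14% had an IHO1 peak in the wild type and 0.152% in Prdm9KO, or 572 and 21 hotspots.

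The 5 wild-type-only peaks with the highest DMC1 values were at the strongest hotspots with IHO1. They lay over Ankfn1 (chr11:89607570-89616591, DMC1 value 20822), Dennd1a (chr2:38136911-38141589, 20514), Erbb4 (chr1:68485797-68492006, 18961) and Nedd1 (chr10:92677067-92684824, 18958), with the last 66.5 kb from Erbb4 (chr1:67959373-67965397, 18266). Erbb4 encodes a receptor tyrosine kinase and Nedd1 a centrosomal protein. The positions are those of the peak files (mm10, counted from 1), the genes are RefSeq GRCm38.p6, and exon or intron was not analysed here. The single shared peak at a strong hotspot, chr3:50904483-50909882, is 315 kb from Noct. Its DMC1 value of 2460 is far under those 5, and it also overlaps a CTCF peak with a score of 4.10.

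Of the 13 shared peaks at hotspots, 8 lay in the end stretches, all on chromosome 9, and 5 in the interior. The interior ones were the peak near Noct, a peak over Pkn2 (chr3:142784719-142791302, DMC1 value 1278), a peak over Ctnna3 and Lrrtm3 (chr10:64083632-64085277, 90.0), a peak over Gm1604a (chr17:7862930-7866137, 108) and a peak over Pisd-ps2 (chr17:3083042-3083814, 55.5). Pkn2 encodes a protein kinase and Ctnna3 a catenin of cell junctions. The Ctnna3 and Pisd-ps2 peaks also overlapped CTCF peaks, with scores of 5.08 and 13.1.

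Among CTCF peaks, IHO1 was found again less often where the deposited CTCF score was lowest. In the interior and away from hotspots, the 4 bins by rising score held 19 of 112 (17.0%, 11.1 to 25.0), 34 of 111 (30.6%, 22.8 to 39.7), 45 of 111 (40.5%, 31.9 to 49.8) and 40 of 112 (35.7%, 27.4 to 44.9). The intervals of the upper 2 bins lie above that of the lowest, and those of the upper 3 overlap each other. The median score was 4.12 for the shared and 3.61 for the wild-type-only peaks, both above the 1.92 of all 32676 CTCF peaks. Width moved with the share too: of 4 bins by width, the narrowest was found in 17.0% and the widest in 39.3%. The part of width in the score's pattern was not tested.

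**Figure D2:**
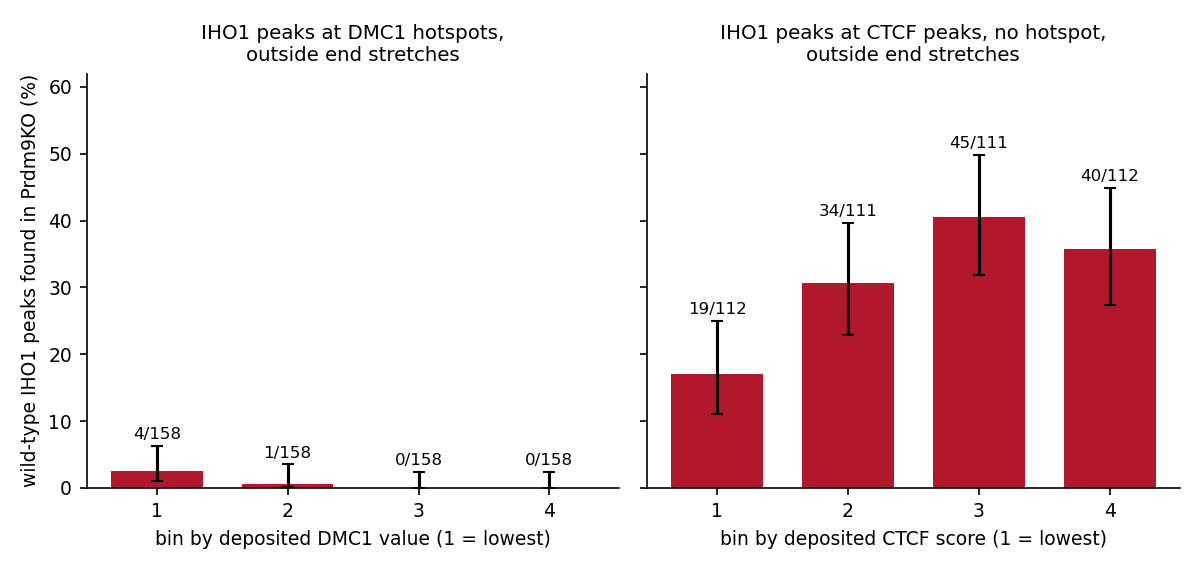
Share of wild-type IHO1 peaks found in Prdm9KO (y axis, percent) in 4 bins of the deposited DMC1 value at interior hotspots (left) and of the CTCF score at interior CTCF peaks without a hotspot (right). Bars start at 0, error bars are 95% Wilson intervals and the counts are found over all; on the left the share is 2.53% in the lowest bin and 0 in the upper 2, and on the right it is 17.0% in the lowest bin and 30.6% or more in the others.

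Peaks at CTCF sites of high score were found in both classes. The highest score of a shared peak away from hotspots was 31.4, in the chromosome 9 end stretch (chr9:124256301-124257955). The shared interior peaks with the highest scores included one 60.9 kb from Gng4 (chr13:13888829-13890217, score 13.0), a G protein subunit gene, and one over Gm46366 (chr12:81786536-81789672, score 7.97). Wild-type-only peaks with high scores lay over Apex2 and Tmem29 (chrX:150477779-150479162, 10.6), Gm40337 (chr5:130852684-130854295, 8.76), Gm10039 (chr11:100361919-100363565, 8.01) and Gm46983 (chr6:5644769-5646144, 7.83), and 9.30 kb from Hjurp (chr1:88286988-88288711, 8.37). Apex2 encodes a DNA repair endonuclease and Hjurp the chaperone of the centromeric histone. HORMAD1 was still listed in Prdm9KO at the wild-type-only peaks of Apex2, Gm40337, Gm10039 and Gm46983.

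From the side of the CTCF sites, 528 of 32676 had an IHO1 peak in the wild type (1.62%), 240 in Prdm9KO (0.734%) and 164 in both. Most of the Prdm9KO ones were strong sites. Of 31371 CTCF peaks outside hotspots and end stretches, the highest of 4 bins by score held 177 of the 205 with IHO1 in Prdm9KO and 329 of the 438 in the wild type.

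HORMAD1 was listed in Prdm9KO at many CTCF sites where IHO1 no longer was. Over whole lists, 36.3% of HORMAD1, 12.6% of SYCP3 and 1.60% of MEI4 wild-type peaks were found in Prdm9KO. At CTCF sites without a hotspot, 400 of 625 HORMAD1 peaks (64.0%) were found in Prdm9KO against 160 of 470 IHO1 peaks (34.0%), a difference for IHO1 of -30.0 points (-35.5 to -24.1). In the wider 50% of peaks the difference was -15.8 points (-26.1 to -4.88). The IHO1 share also moved with the place in the deposited file, whose order is not explained: 54 of 74 such peaks were found among the first 378 rows (73.0%) and 106 of 396 among the others (26.8%). In the interior the shares were 63.2% for HORMAD1 and 30.9% for IHO1. For SYCP3, 110 of 397 were found (27.7%), and IHO1 was 6.33 points higher (0.147 to 12.4). In the interior 96 of 381 SYCP3 peaks were found (25.2%), and the difference of 5.74 points had an interval that included 0 (-0.419 to 11.8). At interior hotspots HORMAD1 was found at 4.02%, SYCP3 at 0.880% and MEI4 at 0 of 1494. The Prdm9KO lists differ in length, with 1009 HORMAD1, 607 SYCP3 and 80 MEI4 peaks, and the SYCP3 Prdm9KO group has 1 sample.

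The same Prdm9KO lists, with 1009 HORMAD1 and 378 IHO1 peaks, were also set against each other peak by peak. Their difference in length therefore applies here too. Of 267 interior wild-type IHO1 peaks at CTCF sites that also overlapped wild-type HORMAD1, the Prdm9KO lists held both proteins at 89, HORMAD1 alone at 106, IHO1 alone at 18 and none at 54. HORMAD1 was therefore listed at 73.0% of them and IHO1 at 40.1%. At the 463 hotspot peaks with both proteins in the wild type, none of the proteins was listed at 452. At the 182 sites with neither hotspot nor CTCF, HORMAD1 was listed at 40.1% and IHO1 at 15.4%. For SYCP3 the order at CTCF sites was the other way round: of 179 peaks with both proteins, IHO1 was listed at 51.4% and SYCP3 at 35.8%.

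**Figure D3:**
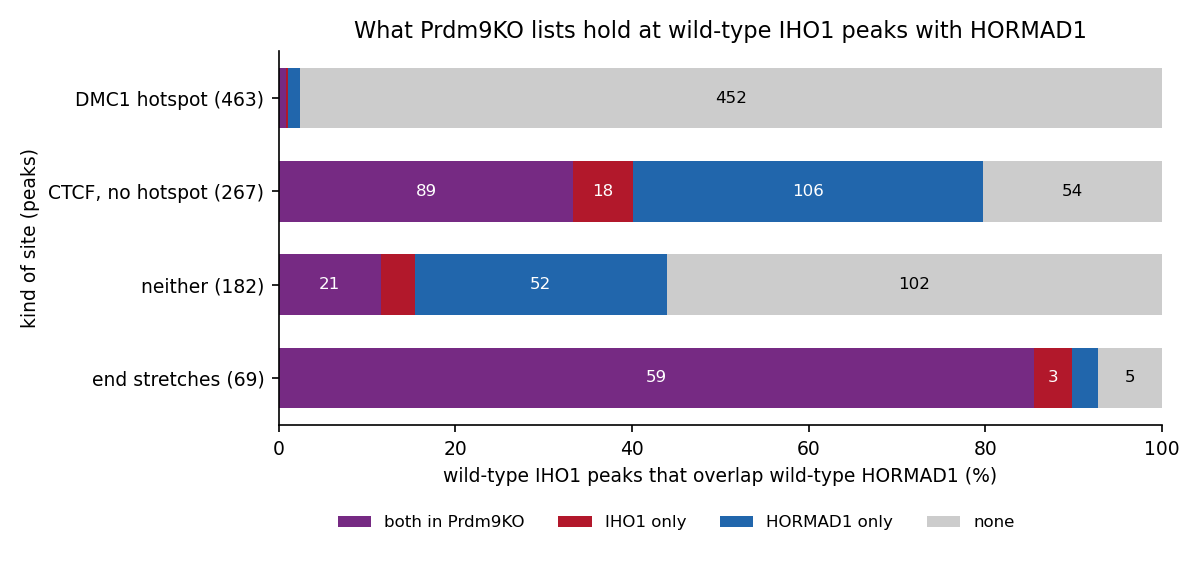
What the Prdm9KO lists hold at wild-type IHO1 peaks that overlap wild-type HORMAD1 (x axis, percent of peaks), by kind of site (y axis, with the number of peaks; the first 3 rows are interior). Numbers in the bars are peaks; HORMAD1 alone (blue) takes 106 of 267 at CTCF sites and none of the proteins (grey) 452 of 463 at hotspots.

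IHO1 itself was found again more often where the axis proteins were listed. Among the 446 interior CTCF sites, 106 of 238 with HORMAD1 in Prdm9KO kept IHO1 (44.5%) against 32 of 208 without (15.4%), a difference of 29.2 points (20.9 to 36.8). With SYCP3 in Prdm9KO the values were 38 of 74 (51.4%) and 100 of 372 (26.9%), a difference of 24.5 points (12.3 to 36.3). Wild-type SYCP3 and HORMAD1 sorted the sites in the same direction, with 51.4% against 17.2% and 40.1% against 17.3%. At sites with neither hotspot nor CTCF, HORMAD1 in Prdm9KO went with 29 of 92 found (31.5%) against 15 of 302 (4.97%).

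Seen by class over the whole lists, shared wild-type peaks lay at CTCF peaks in 164 of 277 cases and wild-type-only ones in 366 of 1312, a difference of 31.3 points (24.9 to 37.4). It was 47.2 points (40.1 to 53.3) without the end stretches and 15.0 points (7.93 to 21.8) away from hotspots. At hotspots the difference was -43.5 points (-46.8 to -39.3). Shared peaks overlapped Prdm9KO HORMAD1 in 210 cases (75.8%) and wild-type-only peaks in 207 (15.8%), 60.0 points apart (54.3 to 65.1), and for Prdm9KO SYCP3 the values were 132 (47.7%) and 118 (8.99%), 38.7 points apart (32.6 to 44.7). In the interior the SYCP3 values were 31.0% and 8.48%, 22.5 points apart (16.1 to 29.6). Among interior peaks away from hotspots, the difference was 44.5 points for Prdm9KO HORMAD1 (36.8 to 51.3). For Prdm9KO SYCP3 it was 15.6 points there (8.66 to 23.1). Over the whole lists, the differences in wild-type HORMAD1 (13.5 points, 7.44 to 19.1) and wild-type SYCP3 (8.92 points, 2.57 to 14.9) were smaller. That in SYCP3 had an interval including 0 in the interior (6.66 points, -0.921 to 13.7). Among interior peaks away from hotspots it was 31.1 points (23.0 to 38.6). Wild-type SYCP3 was listed at 739 of all 1285 interior wild-type-only peaks, and at 211 of the 658 that were away from hotspots. Away from CTCF peaks, over all regions, the differences were 5.31 points for HORMAD1 and -0.515 points for SYCP3, with intervals that include 0. Of that set, 9 of 113 shared and 576 of 946 wild-type-only peaks were at hotspots. At interior sites with neither hotspot nor CTCF, IHO1 was found at 15.4% with wild-type HORMAD1 and 7.55% without, 7.84 points apart (1.56 to 14.4). For wild-type SYCP3 the shares found were 15.6% and 8.50%, 7.14 points apart (0.658 to 14.5). Among the first rows of the wild-type file, as many as Prdm9KO has peaks, the class differences were -0.271 points for HORMAD1 and -9.20 for SYCP3. The latter had an interval under 0.

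MEI4 is the partner of IHO1 in the break machinery. Wild-type MEI4 was listed at 58 of 277 shared and 426 of 1312 wild-type-only peaks, a difference of -11.5 points (-16.6 to -5.79). In the interior the shares were 3 of 187 (1.60%) and 420 of 1285 (32.7%). Away from hotspots they were 1 of 182 (0.549%) and 16 of 658 (2.43%) in the interior, and the difference of -1.88 points had an interval that includes 0 (-3.43 to 0.782). In the end stretches the shares were 55 of 90 (61.1%) and 6 of 27 (22.2%), a description, since these stretches were chosen by their Prdm9KO peaks. With the end stretches included, the difference away from hotspots was 16.5 points (11.8 to 21.8), and 1 of its 52 shared peaks with MEI4 was interior. In Prdm9KO, MEI4 was listed at 3 of the 187 interior shared peaks and at 0 of 1285 wild-type-only ones, which allows up to 0.233%.

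The other mutant IHO1 lists were set against the same wild-type list, so their values are given side by side without a test. Spo11KO lacks the enzyme that makes the breaks, Mei4KO the partner MEI4, and Hormad1KO the axis protein that holds IHO1. Of the 182 interior shared peaks away from hotspots, 66.5% overlapped an IHO1 peak of Spo11KO, 85.2% one of Mei4KO and 1.10% one of Hormad1KO. Of the 658 wild-type-only ones, the shares were 26.9%, 40.0% and 2.28%. Both Hormad1KO shares are for peaks away from hotspots. Over all interior peaks, its list of 1860 overlapped 3 of 187 shared (1.60%) and 458 of 1285 wild-type-only peaks (35.6%).

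**Figure D4:**
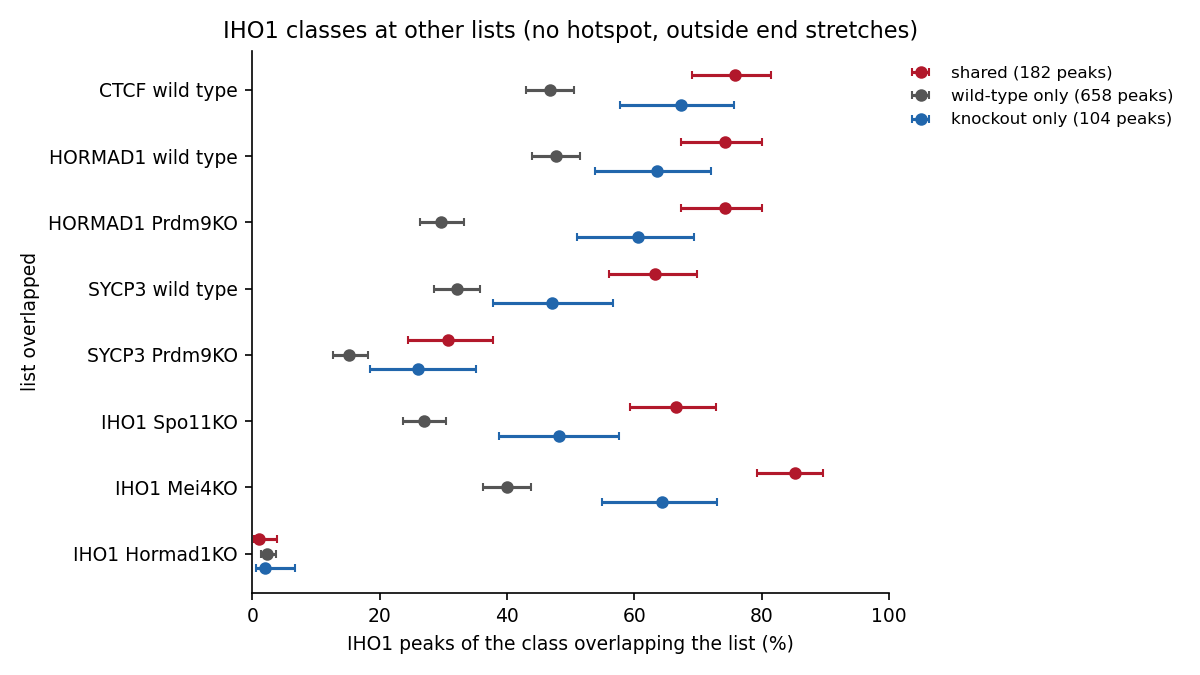
Share of IHO1 peaks of each class (x axis, percent) that overlap each of 8 lists (y axis), for interior peaks that are not at hotspots, 182 shared, 658 wild-type only and 104 knockout only. Points are shares and bars 95% Wilson intervals; in 7 lists the shared points lie to the right of the wild-type-only points, and for IHO1 in Hormad1KO all 3 classes are under 3%.

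The end stretches held 117 wild-type IHO1 peaks, of which 90 were found in Prdm9KO (76.9%). The 81 Prdm9KO peaks there made up 21.4% of that list and 45.2% of its covered length, against 7.36% of the wild-type peaks. The stretches were chosen by Prdm9KO IHO1 peaks, which favours a high share in that list, so these shares are a description. In number, the Prdm9KO peaks there were fewer than the wild-type ones, and the interior held 297 against 1472. In the other IHO1 lists the stretches held 66 of 2681 peaks in Spo11KO (2.46%), 14 of 1036 in Mei4KO (1.35%) and 45 of 1860 in Hormad1KO (2.42%). Of the 80 MEI4 peaks of Prdm9KO, 70 lay in the same stretches (87.5%). HORMAD1 and SYCP3 of Prdm9KO had 8.52% and 12.7% of their peaks there.

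At the ends, 84.0% of wild-type HORMAD1 peaks and 81.9% of wild-type SYCP3 peaks were found in Prdm9KO. The stretches were chosen by Prdm9KO peaks of IHO1 itself, so these shares were not compared with the 76.9% of IHO1. Of the 69 IHO1 peaks with wild-type HORMAD1 at the ends, both proteins were listed in Prdm9KO at 59. MEI4 of Prdm9KO overlapped 63 of the 90 shared peaks (70.0%) and 2 of the 27 wild-type-only ones. Of the 90 shared peaks, 60 were at neither a hotspot nor a CTCF peak.

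The chromosome 9 stretch alone held 64 wild-type peaks, 58 of them shared, and 49 Prdm9KO peaks. The Prdm9KO peaks covered 402777 bp and the wild-type ones 343984 bp. They ran through a cluster of chemokine receptor genes: shared peaks of Prdm9KO lay at the starts of Ccr1, Ccr1l1, Ccr3 and Ccr2, receptors that guide leukocytes, and of Xcr1. The peak at Xcr1, 35321 bp wide (chr9:123834343-123869663), also holds the start of Fyco1, an adaptor of vesicle transport. Neighbouring shared peaks lay at Lztfl1, a regulator of ciliary trafficking, and Slc6a20a, an amino acid transporter.

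On chromosome 13 the widest wild-type shared peak, 25537 bp (chr13:119622663-119648199), overlapped Ccl28, a chemokine gene. It had no overlap with the 19 other MEI4, IHO1, HORMAD1 and SYCP3 lists, and it overlapped a CTCF peak with a score of 1.19. Its Prdm9KO counterpart was 30856 bp wide. On X, Prdm9KO peaks lay in Mid1, a ubiquitin ligase gene that crosses the pseudoautosomal boundary in this strain, and at Asmt, the last enzyme of melatonin synthesis. On Y they lay at Gm52481, Mid1-ps1 and Gm33272, and all 10 were shared. Of the 12 Prdm9KO peaks found in all 5 IHO1 lists, 9 lay in the end stretches, among them chrX:169978911-169984640 over Mid1 and chrY:90796590-90813821 over Gm33272. The X and Y ends share sequence and the autosomal ends hold repeats, and how reads with several matches were placed is not given in the sources used here.

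**Figure D5:**
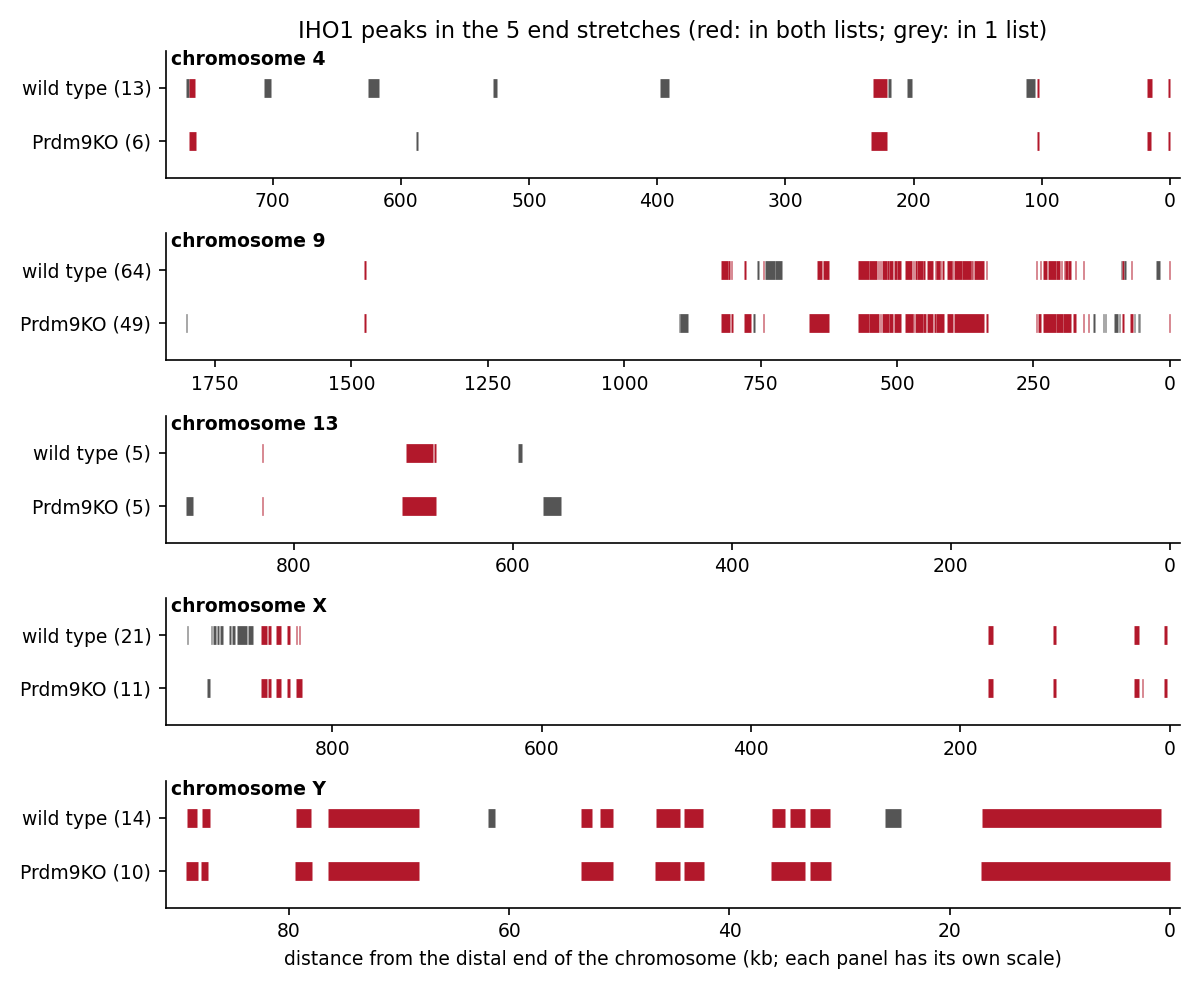
IHO1 peaks of the wild type (upper row of each panel) and Prdm9KO (lower row) by distance from the distal end of chromosomes 4, 9, 13, X and Y (x axis, kb, a scale for each panel), with the number of peaks in brackets. Red bars are peaks found in both lists and grey bars peaks of 1 list; on chromosome 9, 58 of 64 wild-type peaks are red, and on Y all 10 Prdm9KO peaks are.

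The 128 knockout-only peaks could not be told apart from the shared ones by the kind of site they occupied. They lay at CTCF peaks in 75 cases (58.6%) against 162 of 250 shared Prdm9KO peaks (64.8%), and the difference of -6.21 points had an interval that includes 0 (-16.6 to 3.98). With 1 kb windows at peak centres it was -14.0 points (-23.9 to -3.95), and in the wider 50% of peaks 8.71 points (-5.37 to 22.3). At hotspots the counts were 7 and 14, and the difference was -0.131 points (-4.67 to 5.70). Within 1 kb of a RefSeq gene start the counts were 18 (14.1%) and 34 (13.6%), a difference of 0.462 points (-6.46 to 8.45). In the interior they were 16 of 110 (14.5%) and 16 of 187 (8.56%), a difference of 5.99 points (-1.29 to 14.4). The whole-list intervals allow differences of up to 16.6, 5.70 and 8.45 points, and the interior one for gene starts up to 14.4 points.

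Knockout-only peaks overlapped the wild-type and Prdm9KO lists of the axis proteins less often than the shared peaks did. Prdm9KO HORMAD1 was listed at 77 of them (60.2%) against 192 of 250 (76.8%), -16.6 points (-26.5 to -6.82), and Prdm9KO SYCP3 at 40 (31.2%) against 110 (44.0%), -12.8 points (-22.4 to -2.35). The SYCP3 difference was -2.83 points in the interior, with an interval that includes 0 (-13.1 to 8.12), and the HORMAD1 difference was -8.10 points in the wider 50% of peaks (-20.4 to 4.58). Wild-type HORMAD1 was listed at 57.8% of the knockout-only and 74.0% of the shared peaks, -16.2 points (-26.2 to -6.16), and wild-type SYCP3 at 46.9% and 66.4%, -19.5 points (-29.6 to -8.99). In the interior these differences were -13.0 points (-24.0 to -2.21) and -17.8 points (-29.0 to -6.12). Over whole lists, SYCP3 of Spo11KO and Hormad1KO differed by -14.2 points (-24.3 to -3.51) and -13.1 points (-23.4 to -2.56). For HORMAD1 of Spo11KO, Mei4KO and Iho1KO the differences were -8.05, 4.08 and -5.63 points, with intervals that include 0. The same held for SYCP3 of Mei4KO (-7.13 points) and Iho1KO (-7.97 points). Which SYCP3 lists differed depended on the end stretches. In the interior the difference was -11.8 points for Mei4KO (-22.7 to -0.235) and -14.6 points for Hormad1KO (-25.9 to -2.88). For Spo11KO (-9.68 points, -20.5 to 1.86) and Iho1KO (-8.77 points, -19.9 to 2.20) the interior intervals include 0. Over whole lists, at least 1 of the 11 axis lists had a peak at 95.3% of the knockout-only and 98.4% of the shared peaks. For the wild-type-only peaks this share was 92.5%, so it was high in every class. The next counts were made for the knockout-only peaks alone, so they do not set this class apart from the others. One or both of the wild-type axis lists had a peak at 90 of the 128 (70.3%, 61.9 to 77.5), and 109 lay at one of these or at CTCF. HORMAD1 was listed in both genotypes at 55, in Prdm9KO alone at 22 and in the wild type alone at 19. IHO1 of Spo11KO, Mei4KO or Hormad1KO overlapped 81 of them (63.3%), against 84.0% of the shared Prdm9KO peaks and 64.0% of the wild-type-only peaks. In the interior and away from hotspots, IHO1 of Spo11KO was listed at 48.1% of the knockout-only and 26.9% of the wild-type-only peaks. For Mei4KO these shares were 64.4% and 40.0%, and for Hormad1KO 1.92% and 2.28%. At 15 of the 128 knockout-only peaks none of the wild-type lists of HORMAD1, SYCP3, MEI4, CTCF or DMC1 had an interval. This too was counted for that class alone.

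The widest knockout-only peaks lay over Nim1k, a kinase gene (chr13:119747914-119765168), and Slc6a20b (chr9:123598233-123611849) in the end stretches, and in the interior over Myo5c, a myosin (chr9:75225929-75235237), Map3k12, a kinase of neuronal stress signalling (chr15:102503805-102512929), and Aatk, Baiap2, Mir338 and Mir3065 (chr11:120006670-120015121). Their widths were 17255, 13617, 9309, 9125 and 8452 bp. At gene starts, knockout-only peaks were found at the histone gene H4c2, at Hmgb2, a chromatin protein, at Dck, a nucleoside kinase, and at Rbm15b, an RNA-binding protein. Shared ones were found at another histone H4 gene, H4c17, at the homeobox gene Hoxa7 and at the translation factor Eif3g. Near-identical histone gene copies make the placement of peaks at H4c2 and H4c17 uncertain. Genes named at starts are a selection made after their peaks were seen.

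Among 39 genes of meiotic recombination and the chromosome axis, 2 had a wild-type IHO1 peak within 1 kb of the gene and 1 had a Prdm9KO peak. The first were Zcwpw1, which reads the histone marks that PRDM9 writes, and Gm960, listed in RefSeq with the synonym Top6bl, the partner of SPO11. Zcwpw1 alone had one in Prdm9KO. Of 21896 protein-coding genes, 3.59% had a wild-type and 0.671% a Prdm9KO peak, so counts of 2 and 1 in 39 carry little precision.

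The interior share found is given by chromosome as a description. It ran from 6.74% on chromosome 4 (6 of 89) to 24.0% on chromosome 12 (12 of 50), leaving aside Y, where the interior had 1 wild-type peak that was not found. These are the lowest and highest of small counts, given without intervals. Whether chromosomes differ, or differ in their hotspot and CTCF make-up, was not tested. On X it was 8 of 77 (10.4%).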

How the data were processed

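Chromatin immunoprecipitation of testes was compared between wild type and Prdm9KO. Per the submitters' processing notes, Bowtie2, MACS2 and the build mm10 were used, with no versions or settings given. The deposited IHO1, HORMAD1, SYCP3 and MEI4 lists give positions only. The CTCF and DMC1 lists compared are those of the wild type, and they marked CTCF peaks and hotspots for the IHO1 peaks of both genotypes. No CTCF or DMC1 list of Prdm9KO was among those analysed. The CTCF list carries a score per peak that the authors deposited, and the DMC1 list a signal value per hotspot that the authors deposited. The score and the value were used only to rank intervals within their list.

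Overlap was at least 1 bp. Shares have 95% Wilson intervals and differences Newcombe intervals, called where they exclude 0. With 1 list per group no p-value was computed. Read counts were not used here, so depth is unknown. A count of 0 has an upper limit of 3 counts. Chromosome ends are the furthest deposited interval, and end stretches are the last 2 Mb with 3 or more Prdm9KO peaks. Gene starts are RefSeq GRCm38.p6.

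Sites named in the text are the 5 widest, the 5 highest by CTCF score and the 5 highest by DMC1 value in the classes, the shared peaks at the 1000 strongest hotspots and those in all 5 IHO1 lists. Some of these sites are not reported here. Shared peaks at weaker hotspots, genes at starts and printed promoters were added after their values were seen. Members, the list of 39 genes and the comparisons were chosen with earlier results of these data known. Overlap counts were checked against bedtools 2.31.1 and tested on simulated data. Python 3.11.15, pandas 2.3.3 and numpy 2.4.6 were used. The DMC1 list of Hormad1KO was not used in comparisons. Alternatives changed the overlap rule, peak window, width, chromosomes and site lists.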

Additional observations from a re-analysis of the deposited data

How the results depend on the processing

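For 15 results, 125 alternatives were run, of which 97 kept their direction and their side of the interval test, or stayed in the interval of the share. The share of wild-type IHO1 peaks found in Prdm9KO was 14.7% with 1 kb centre windows, 13.3% in the wider 50% of peaks, 28.0% away from hotspots, 12.7% without the end stretches and 29.1% among the first rows of the wild-type file (as many as Prdm9KO has). The share of Prdm9KO peaks found in the wild type was 61.1% with centre windows and 48.7% in the wider 50%. Shared against wild-type-only peaks differed at wild-type HORMAD1 by 5.31 points away from CTCF peaks and by -0.271 among the first rows. At wild-type SYCP3 they differed by 6.80 points with centre windows, -0.515 away from CTCF peaks, 6.66 without the end stretches and -9.20 among the first rows. At wild-type MEI4 the difference was 16.5 points away from hotspots and -2.61 away from CTCF peaks. Knockout-only against shared peaks differed at CTCF peaks by -14.0 points with centre windows and 8.71 in the wider 50%. At hotspots they differed by 3.71 points with centre windows, 0.0664 with peaks within 1 kb counted as found, 1.12 at the stronger 50% of hotspots and 2.78 without the end stretches. At Prdm9KO HORMAD1 the difference was -8.10 points in the wider 50%. At Prdm9KO SYCP3 it was -3.71 with centre windows, -10.6 on autosomes and -2.83 without the end stretches. At gene starts it was -1.06 with 50% overlap, -6.44 in the wider 50%, -1.59 away from CTCF peaks and 5.99 without the end stretches. Other values moved by over 1.5 times without losing their call. The hotspot difference was -72.6 points among the first rows. At wild-type HORMAD1 it was 25.4 and at wild-type SYCP3 33.4 away from hotspots, and at wild-type MEI4 -19.4 with centre windows, -31.1 without the end stretches and -20.3 among the first rows. At Prdm9KO SYCP3 the shared and wild-type-only peaks were 58.3 points apart away from CTCF peaks and 63.4 among the first rows. The knockout-only difference there was -21.8 in the wider 50% and -19.9 away from CTCF peaks. The cause of these changes was not tested. The end-stretch and first-rows alternatives were chosen after seeing the data. No paired analysis was possible because each group has 1 list, and for the same reason no replicate could be left out. Depth limits could not be set without counts.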

Other observations

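The deposited rows of the wild-type IHO1 list are not in chromosome order, and the basis of their order is not given in the sources used here. The first 378 rows, as many as the Prdm9KO list holds, had 222 peaks at hotspots, of which 8 were found in Prdm9KO (3.60%), and 156 away from hotspots, of which 102 were found (65.4%). In the other 1211 rows the values were 5 of 423 (1.18%) and 162 of 788 (20.6%). In the interior the first rows had 3 of 215 found at hotspots (1.40%) and 55 of 106 elsewhere (51.9%).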
